A study of Mus musculus with 6 samples.

Results

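The genes described here are 9 factors of nonsense-mediated mRNA decay (NMD), taken by gene symbol from the deposited gene count table of cultured mouse B cells: *Upf1*, *Upf2*, *Upf3a*, *Upf3b*, *Smg1*, *Smg5*, *Smg6*, *Smg8* and *Smg9*. All 9 were among the 24499 genes of the table, and all 9 had enough counts to be tested, as 13296 genes did. The cells were induced germinal center B cells (iGCBs), made by culturing naïve splenic B cells for 3 days with IL-4 (1 ng/mL) on 40LB cells, a mouse fibroblast feeder line that carries CD40 ligand and BAFF and was irradiated with 120 Gy. YFP+ cells were then sorted, and RNA libraries were made from 3 cKO and 3 control samples, called biological replicates in the study. The number of mice behind each library is not given in the sources used here. The cKO mice carried *Cγ1* Cre and a *Rosa26-YFP* LSL reporter on an *Eif3e* fl/fl background, so that Cre, driven by the *Ighg1* locus once a B cell is activated, deletes *Eif3e*, a subunit of the translation initiation complex eIF3, and switches on YFP in the same cell. The labels name the control genotype only as control, with libraries called cgWT, and YFP marks *Cγ1* Cre expression in both groups, so both held cells in which Cre had acted. Since this Cre acts only after activation, *Eif3e* is lost in the course of the culture and not from its start. Age and sex of the mice are not given in the sources used here.

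NMD removes mRNAs on which a ribosome stops too early, and it also shortens the life of many normal transcripts. UPF1 is the RNA helicase at its center. UPF2 and the paralogs UPF3A and UPF3B link UPF1 to exon junction complexes, the protein marks that splicing leaves on an mRNA. The kinase SMG1, held in check by SMG8 and SMG9, phosphorylates UPF1, and phosphorylated UPF1 recruits either the endonuclease SMG6 or an arm that holds SMG5, which leads to removal of the poly(A) tail and cap. eIF3e has been linked to NMD, and the comparison asked whether RNA levels of the decay factors differed between cKO and control iGCBs.

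Total estimated counts per library ran from 39079582 to 45504570, at which 3 counts correspond to 0.0659 to 0.0768 counts per 1000000 (CPM). *Eif3e*, the targeted gene, stood at 173, 150 and 152 CPM in cKO and at 424, 401 and 392 CPM in control iGCBs. It fell by 1.36 on the log2 scale (SE 0.0657, adjusted p = 6.71e-07), and the count covers the whole gene rather than the deleted exons. The 7 B cell markers summed to 4655 to 4837 CPM in cKO and 4481 to 4815 CPM in control libraries, while 4 of them were higher and 3 lower in cKO, and the germinal center markers *Fas* and *Bcl6* were both detected. Of the 5 T cell markers *Cd3e* was at 0 in every library and the sum was at most 0.355 CPM. The 5 myeloid markers summed to 12.1 to 13.6 CPM in cKO and 9.90 to 12.7 CPM in control libraries, and of the 3 with enough counts to test *Adgre1* was higher (log2 1.96, adjusted p = 0.00203). The 10 fibroblast markers, which could come from the feeder cells, summed to 98.0 to 115 CPM in cKO and 63.5 to 125 CPM in control libraries, with *Postn* at 0 in every library, 2 markers higher, 2 lower and 5 not passing the test. The 5 plasma cell markers summed to 646 to 788 CPM in cKO and 831 to 852 CPM in control libraries without overlap. The largest part of that sum was *Irf4*, which was higher (log2 0.42), and the others moved further, with *Sdc1* higher (log2 1.60) and *Jchain* (log2 -4.00), *Prdm1* (log2 -1.13) and *Xbp1* (log2 -1.10) lower in cKO. The 2 germinal center markers summed to overlapping ranges of 170 to 181 and 168 to 179 CPM, with *Fas* higher and *Bcl6* lower in cKO. Whether these differences in cell state play a part in the results on the decay factors was not tested, and in sorted bulk samples fewer cells of a type and less RNA per cell cannot be told apart.

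Of the 9 factors, *Upf1* and *Upf3b* were higher in cKO, *Smg6* and *Smg9* were lower, and *Upf2*, *Upf3a*, *Smg1*, *Smg5* and *Smg8* did not pass the test (edgeR quasi-likelihood test, adjusted p under 0.05 over all genes). The 4 changes were all between 1.24-fold and 1.28-fold in size. Over all tested genes 24.1% were higher and 24.5% lower by the same rule, 48.6% in all, so 4 of 9 is a share near the background. None of the 9 passed the additional cutoff of 1.5-fold used in the study, which 21% of all tested genes (10.4% higher and 10.6% lower) passed. Libraries of the 2 groups did not overlap for 5 of the 9, 2 of them higher and 3 lower in cKO, against 58.7% of tested genes (29.2% higher and 29.5% lower). The median log2 fold change of the factors was 0.04 (over all tested genes -0.004), and their median absolute log2 fold change was 0.10 against 0.35 over all tested genes. The plot of CPM by library gives every value.

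**Figure D1:**
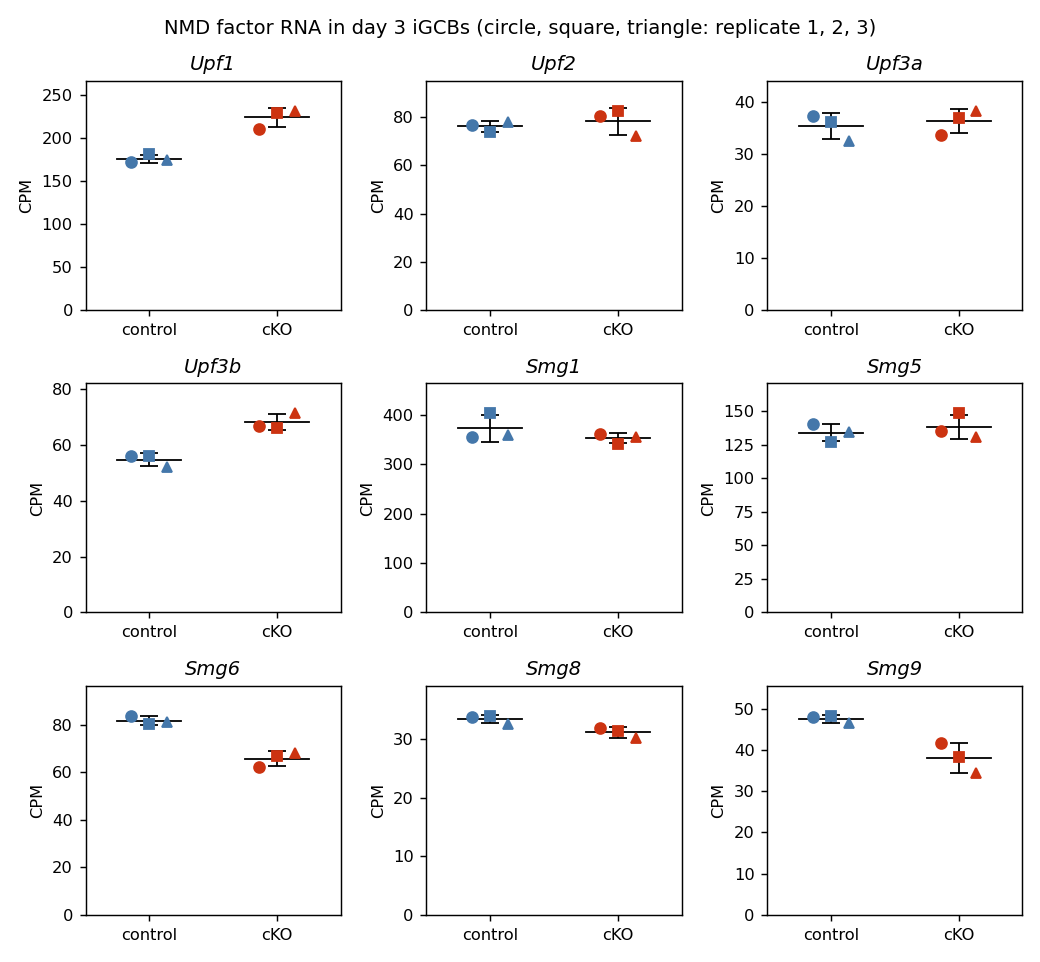
RNA level of each of the 9 NMD factors in CPM (vertical axis, from 0) in the 3 control (blue) and 3 cKO (red) libraries, with group mean (long line) and SD (bars); circles, squares and triangles are replicates 1, 2 and 3. The cKO points lie above all control points for *Upf1* and *Upf3b*, below them for *Smg6*, *Smg8* and *Smg9*, and among them for the other 4.

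*Upf1* (GRCm38 chr8:70331525-70353278, minus strand, ENSMUSG00000058301.8) was at 211, 229 and 231 CPM in cKO libraries 1 to 3 and at 172, 181 and 174 CPM in control libraries. Each cKO library was above each control library. The means were 224 ± 11.5 and 176 ± 5.00 CPM (SD, n = 3 each), a 1.28-fold rise (log2 0.35, SE 0.0535, 95% interval 0.232 to 0.470, adjusted p = 0.000394). Exons of *Upf1* share 68 bases with *Cers1* and 63 bases with *Gdf1* on the opposite strand, but *Cers1* had 0 counts and *Gdf1* at most 8 in any library.

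The table held *Upf1* as the only factor with more than 1 RefSeq transcript. The NM_001122829 form has a coding sequence of 3372 bases, that of NM_030680 has 3339, and the extra 33 bases (11 codons) are in frame at chr8:70339982-70340014 of GRCm38, at exon 7 of 24 in the coding part of the gene. The stretch is the only difference in coding sequence between the measured *Upf1* mRNAs, which are 4618 (NM_001122829) and 4518 (NM_030680) bases long in all. It is printed 5′ to 3′ on the mRNA strand. The extra bases are in capitals, with 12 flanking bases on each side in lower case.
NM_001122829: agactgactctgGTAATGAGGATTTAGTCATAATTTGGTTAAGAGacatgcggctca
NM_030680: agactgactctgacatgcggctca

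The longer form made up 25.4%, 21.3% and 17.1% of *Upf1* transcript counts in cKO iGCBs and 16.9%, 19.7% and 18.1% in controls. The groups overlapped, since cKO library 3 lay below 2 of the control libraries. The means were 21.3% ± 4.12 and 18.2% ± 1.37 (SD, n = 3 each), a difference of 3.06 percentage points that was within the spread (two-sided exact permutation test, p = 0.3, where 0.1 is the smallest p that 3 against 3 can give). At the level of single transcripts both forms were higher in cKO, NM_030680 by 0.30 on the log2 scale (adjusted p = 0.0406) and NM_001122829 by 0.56 (adjusted p = 0.0315). Over all 18040 transcripts tested 12.4% were higher and 12.7% lower, 25.1% in all. Transcripts of the factors gave the same 4 genes as the gene counts, with those of *Upf1* and *Upf3b* higher and those of *Smg6* and *Smg9* lower, but with any 1 of the 6 libraries left out only 1 or 2 transcripts were called higher, and only 1 lower except without cKO library 1, which left 2.

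*Upf3b* (chrX:37091678-37110322, minus strand, ENSMUSG00000036572.16), the paralog that binds exon junction complexes more strongly, was at 66.8, 66.0 and 71.2 CPM in cKO and 56.0, 55.9 and 52.1 CPM in control libraries. The lowest cKO library was above the highest control library. It rose 1.24-fold from 54.7 ± 2.18 to 68.0 ± 2.81 CPM (SD, n = 3 each; log2 0.31, SE 0.0631, 95% interval 0.174 to 0.455, adjusted p = 0.00215). The gene is X-linked, and the X-inactivation RNA *Xist* was abundant in cKO library 2 and control libraries 1 and 2 and at most 16 counts in the other 3, so the groups differed in the number of such libraries. With the log2 level of *Xist* as a covariate the adjusted p of *Upf3b* was 0.0042.

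Its paralog *Upf3a* (chr8:13785615-13799193, plus strand, ENSMUSG00000038398.8) was at 33.7, 36.9 and 38.3 CPM in cKO and 37.4, 36.2 and 32.6 CPM in control libraries, and the groups overlapped. The log2 difference was 0.04, with a 95% interval of -0.158 to 0.232 (adjusted p = 0.760). *Upf2* (chr2:5951469-6056703, plus strand, ENSMUSG00000043241.14), the bridge between UPF1 and UPF3 proteins, was at 80.3, 82.6 and 72.0 CPM in cKO and 76.6, 73.9 and 78.2 CPM in control libraries. The cKO libraries lay on both sides of the control libraries (log2 0.04, 95% interval -0.102 to 0.181, adjusted p = 0.644).

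The kinase gene *Smg1* (chr7:118131308-118243670, minus strand, ENSMUSG00000030655.15) was at 361, 341 and 356 CPM in cKO and 354, 403 and 360 CPM in control libraries. The groups overlapped, and control library 2 was the highest (log2 -0.08, 95% interval -0.211 to 0.0532, adjusted p = 0.302). *Smg9* (chr7:24399619-24422778, plus strand, ENSMUSG00000002210.11), which codes for a regulatory subunit of the kinase complex, was at 41.7, 38.2 and 34.4 CPM in cKO and 47.9, 48.3 and 46.5 CPM in control libraries. All cKO libraries were below all control libraries, and cKO library 3 was the lowest. *Smg9* fell from 47.6 ± 0.933 to 38.1 ± 3.66 CPM (SD, n = 3 each; 0.801-fold, log2 -0.32, SE 0.0842, 95% interval -0.508 to -0.133, adjusted p = 0.00984).

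*Smg8* (chr11:87077732-87086774, minus strand, ENSMUSG00000020495.13), whose product pairs with SMG9 on the kinase, was the least counted factor, at 31.9, 31.3 and 30.2 CPM in cKO and 33.7, 34.0 and 32.7 CPM in control libraries. The 3 cKO libraries were the lowest, but the gap was small next to the modelled spread, and the difference did not pass the test (log2 -0.10, 95% interval -0.271 to 0.0656, adjusted p = 0.293). The intervals of *Smg8* and *Smg9* overlapped each other, and their difference was not tested.

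*Smg6* (chr11:74925823-75164448, plus strand, ENSMUSG00000038290.15), the endonuclease that cuts the target mRNA, was at 62.3, 66.9 and 68.0 CPM in cKO and 83.7, 80.4 and 80.9 CPM in control libraries. The groups were well apart. *Smg6* fell from 81.6 ± 1.77 to 65.7 ± 3.00 CPM (SD, n = 3 each; 0.805-fold, log2 -0.31, SE 0.0565, 95% interval -0.439 to -0.187, adjusted p = 0.00114). Its exons share 126 bases with *Srr* on the opposite strand, a gene with 394 to 765 counts per library, and 117 bases with the antisense gene *Gm12333*, which was not analysed here. Whether the counts kept the strands apart is not given in the sources used here, so reads in those bases cannot be told apart.

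*Smg5* (chr3:88336260-88362338, plus strand, ENSMUSG00000001415.10), of the arm that leads to deadenylation and decapping, was at 135, 149 and 131 CPM in cKO and 141, 128 and 135 CPM in control libraries. The groups overlapped widely (log2 0.04, 95% interval -0.0984 to 0.183, adjusted p = 0.613). For all 5 factors that did not pass the test the 95% interval stayed within 1.5-fold in both directions, as the plot of fold changes shows.

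**Figure D2:**
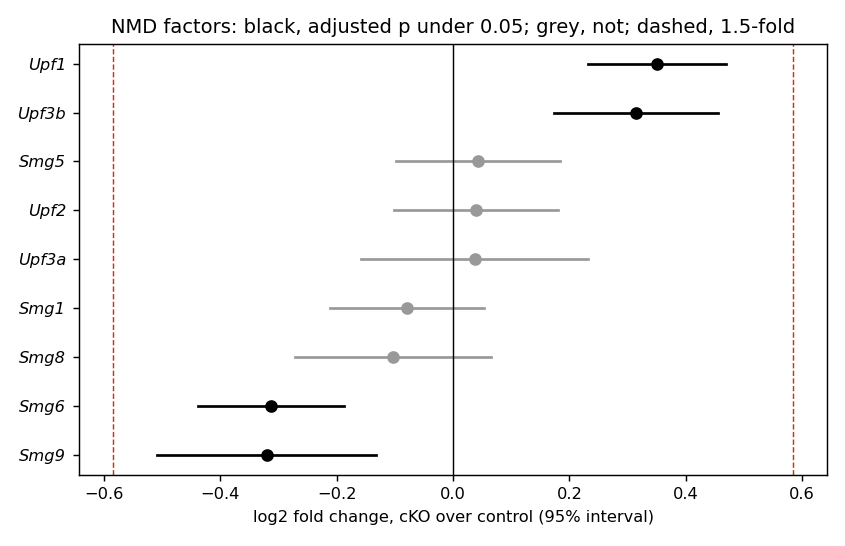
Log2 fold change of cKO over control (horizontal axis) for the 9 NMD factors, ordered by value, with 95% intervals; black points passed an adjusted p of 0.05, grey points did not, and dashed lines mark 1.5-fold. The 2 black points on the right are *Upf1* and *Upf3b*, the 2 on the left *Smg6* and *Smg9*, and every interval ends inside the dashed lines.

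Within each library 4 ratios between factors were read, which removes library size from the comparison. The log2 ratio of *Upf3b* to *Upf3a* counts was 0.99, 0.84 and 0.89 in cKO and 0.58, 0.63 and 0.68 in control libraries, without overlap, a difference of 0.28. The log2 ratio of *Smg6* to *Smg5*, the 2 alternative arms downstream of UPF1, was -1.12, -1.15 and -0.95 in cKO and -0.75, -0.67 and -0.73 in control libraries, again without overlap, a difference of -0.36. In linear terms there were 0.476 *Smg6* counts for each *Smg5* count in cKO and 0.608 in control iGCBs.

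Within the kinase complex the log2 ratio of *Smg9* to *Smg1* was lower in every cKO library (mean -3.22 ± 0.138 against -2.97 ± 0.0888, SD, n = 3 each), and that of *Smg8* to *Smg1* overlapped (-3.50 ± 0.0576 against -3.48 ± 0.0879). A two-sided exact permutation test gave p = 0.1 for each of the 3 ratios without overlap, the smallest p it allows, and p = 0.8 for *Smg8* to *Smg1* (0.133 and 0.8 after Benjamini-Hochberg adjustment over the 4 ratios). None of the 4 therefore passed, and with 3 libraries a group none could have.

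**Figure D3:**
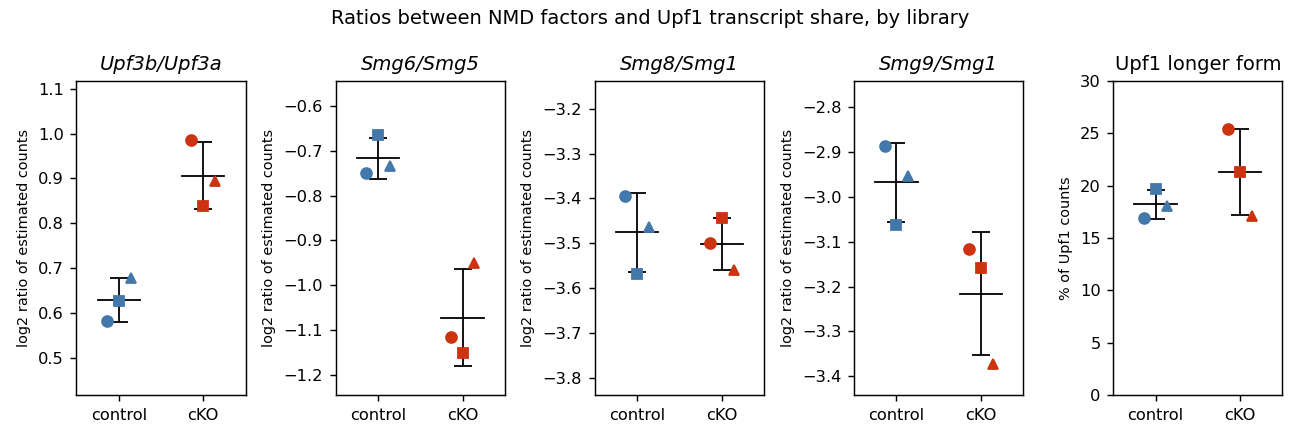
Log2 ratio of estimated counts between pairs of NMD factors (first 4 panels, each spanning the same log2 range) and share of *Upf1* transcript counts in the longer form (last panel, %, from 0), in control (blue) and cKO (red) libraries with mean and SD; circles, squares and triangles are replicates 1, 2 and 3. Groups are apart in the *Upf3b* to *Upf3a*, *Smg6* to *Smg5* and *Smg9* to *Smg1* panels and overlap in the other 2.

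To order the factors by level, CPM were divided by the length of the transcript with most counts, in kilobases. In control iGCBs *Upf1* was highest at 38.9 ± 1.11 CPM per kb, followed by *Smg5* (30.2 ± 1.49), *Smg1* (24.0 ± 1.71), *Upf3b* (23.3 ± 0.932), *Smg9* (21.2 ± 0.416), *Upf3a* (17.2 ± 1.22), *Upf2* (14.7 ± 0.425), *Smg6* (13.96 ± 0.303) and *Smg8* (10.4 ± 0.218; SD, n = 3 each). *Smg1* and *Upf3b*, and *Upf2* and *Smg6*, overlapped between libraries, while the other neighbours did not. In cKO iGCBs *Upf1* was at 49.5 ± 2.55 CPM per kb and *Upf3b*, at 29.0 ± 1.20, stood above *Smg1* at 22.7 ± 0.677. The neighbours that overlapped there were *Smg5* (31.1 ± 2.05) and *Upf3b*, *Upf3a* (17.7 ± 1.14) and *Smg9* (17.0 ± 1.63), and *Smg9* and *Upf2* (15.1 ± 1.08). *Upf1* at the top and *Smg6* and *Smg8* at the bottom held their places, at 11.2 ± 0.513 and 9.68 ± 0.274 CPM per kb for the latter.

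The mean log2 CPM of the 9 factors was nearly flat, from 6.33 to 6.38 over the 6 libraries. Over those libraries the tested genes whose log2 CPM followed that mean most closely were *Akap17b* (Pearson r = 0.985), *Mir106b* (0.980) and *Ptcd1* (0.977), and those that ran most against it were *Trim14* (-0.979), *Zdhhc12* (-0.978) and *Decr2* (-0.969). None of these 6 genes differed between the groups by the test. The libraries share their culture protocol, and 6 points with so narrow a range describe the libraries and no more.

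Promoters of the 4 factors that changed are printed for the sequence around their starts, as bases from 250 before to 50 after the RefSeq start (GRCm38.p6), 5′ to 3′ in the direction of the gene, with motif matches in capitals. *Upf1* is at chr8:70353230-70353529, *Upf3b* at chrX:37110273-37110572, *Smg6* at chr11:74925604-74925903 and *Smg9* at chr7:24399378-24399677.
Upf1: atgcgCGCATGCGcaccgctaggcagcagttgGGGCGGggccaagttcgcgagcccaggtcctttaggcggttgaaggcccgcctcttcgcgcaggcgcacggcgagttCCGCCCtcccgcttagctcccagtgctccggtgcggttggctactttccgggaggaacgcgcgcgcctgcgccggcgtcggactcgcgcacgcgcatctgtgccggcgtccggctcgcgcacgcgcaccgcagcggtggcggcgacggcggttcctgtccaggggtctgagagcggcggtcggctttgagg
Upf3b: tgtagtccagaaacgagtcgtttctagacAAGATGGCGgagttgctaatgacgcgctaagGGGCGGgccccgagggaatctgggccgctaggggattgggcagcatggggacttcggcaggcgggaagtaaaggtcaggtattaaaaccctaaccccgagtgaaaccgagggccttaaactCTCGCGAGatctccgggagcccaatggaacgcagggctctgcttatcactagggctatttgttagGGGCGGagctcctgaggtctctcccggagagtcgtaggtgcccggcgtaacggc
Smg6: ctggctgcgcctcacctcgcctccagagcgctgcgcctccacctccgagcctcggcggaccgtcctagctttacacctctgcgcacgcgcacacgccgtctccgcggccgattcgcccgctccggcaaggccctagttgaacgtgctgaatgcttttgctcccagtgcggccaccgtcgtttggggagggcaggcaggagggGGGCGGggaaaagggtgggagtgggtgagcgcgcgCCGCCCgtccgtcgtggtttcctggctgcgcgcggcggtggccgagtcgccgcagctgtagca
Smg9: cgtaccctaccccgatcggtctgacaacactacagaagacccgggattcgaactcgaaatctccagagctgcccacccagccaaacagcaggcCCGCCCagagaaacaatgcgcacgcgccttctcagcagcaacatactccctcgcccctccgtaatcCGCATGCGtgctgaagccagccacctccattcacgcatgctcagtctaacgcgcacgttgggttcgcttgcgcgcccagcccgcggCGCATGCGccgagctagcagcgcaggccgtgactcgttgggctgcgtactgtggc

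The letters searched on both strands were the GC box GGGCGG, the NRF1 core CGCATGCG, the palindrome CTCGCGAG, the YY1 element AAGATGGCG, CCAAT, the E-box CACGTG, the cAMP response element TGACGTCA and the ATF4 site TGATGCAA; only the first 4 are capitalized, and none contains another. The GC box was in 7 of the 9 promoters, all but *Smg5* and *Smg8*, against 35.7% of 32851 promoters of the same length. The NRF1 core was in *Upf1* at -245 and in *Smg9* at -91 and -5 from the start, against 1.87% of promoters, so a gene that rose and a gene that fell both carry it. *Upf3b* held the palindrome at -69 and the YY1 element at -221 (0.919% and 1.40% of promoters), and *Upf3a* held the palindrome at 17. CCAAT was in 4 of the 9 (37.4% of promoters), and the E-box, cAMP response element and ATF4 letters were in none (7.15%, 1.79% and 0.895% of promoters). GC content of the 9 ran from 53.3% to 72.3%, above the median of 52.7% over all promoters.

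The other proteins of the pathway were read from lists of 44 genes in 8 groups. Of these 44, 20 were higher in cKO and 9 lower (24.1% and 24.5% of all tested genes), and the median log2 fold change was 0.16. Among the 8 further NMD partners 4 rose and none fell: *Ruvbl1* and *Ruvbl2*, ATPases that support SMG1, the helicase *Mov10* and the RNA-binding protein *Stau1*. *Ruvbl1* was at 82.7, 94.5 and 88.9 CPM in cKO and 65.7, 64.0 and 70.2 CPM in control libraries (log2 0.41, adjusted p = 0.000494). Only 3 of the partners were called higher without cKO library 1, cKO library 2 or control library 2.

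Of the 9 exon junction complex and cap binding genes 7 rose and none fell (24.1% and 24.5% of all tested genes), with a list median of 0.31 on the log2 scale. Without cKO library 2 or 3 or control library 2 or 3, 6 were called higher. The largest rise was in *Magoh*, a core subunit, at 64.0, 67.0 and 65.2 CPM against 45.9, 41.2 and 50.2 CPM (log2 0.52, adjusted p = 0.000416). *Eif4a3*, the helicase that clamps the complex to RNA, did not pass (log2 0.05, adjusted p = 0.543), and neither did the *Magoh* paralog *Magohb* (log2 0.34, adjusted p = 0.0537). Of the 4 translation termination genes 3 rose: *Etf1*, which codes for eRF1, and *Gspt1* and *Gspt2*, which code for eRF3 proteins. *Gspt2* was barely expressed, at 1.28, 1.64 and 0.967 CPM against 0.377, 0.407 and 0.656 CPM (log2 1.43, adjusted p = 0.0205), and lost its call without cKO library 2, control library 1 or control library 2. The poly(A)-binding protein gene *Pabpc1* did not pass (log2 -0.08, adjusted p = 0.143), and without control library 2 it made 1 gene of this list called lower.

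Downstream decay enzymes were called in both directions, in short lists, and the shares of the decapping and deadenylation lists are near the 24.1% higher and 24.5% lower of all tested genes. Of the 8 decapping and 5′ decay genes 2 rose (*Dcp2*, the decapping enzyme, and *Edc4*) and 3 fell (*Dcp1a*, *Ddx6* and *Patl1*), or 4 without cKO library 3. *Patl1*, a scaffold of the decapping machinery, was at 69.1, 73.1 and 75.5 CPM against 92.9, 91.6 and 94.7 CPM (log2 -0.36, adjusted p = 0.000396). Of 5 deadenylation genes *Cnot1*, the scaffold of the CCR4-NOT complex, rose by 0.44 on the log2 scale (adjusted p = 2.73e-05), from 475 to 489 CPM in control to 638 to 664 CPM in cKO libraries, and *Pan2* fell by 0.54. Without control library 2 a second deadenylation gene was called lower, 2 in all. Of 6 exosome and SKI genes 2 rose (*Dis3* and *Ttc37*) and 3 fell (*Exosc3*, *Exosc10* and *Skiv2l*), of which only 2 were called lower with any library other than cKO library 3 left out. *Dis3*, a catalytic subunit of the exosome, was at 103, 113 and 104 CPM against 55.7, 54.2 and 61.2 CPM (log2 0.90, adjusted p = 4.29e-06), the largest rise in these groups after *Gspt2*.

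Of the phosphatase 2A subunits that act on UPF1, the scaffold *Ppp2r1a* fell by 0.26 on the log2 scale (adjusted p = 0.000963) and the catalytic *Ppp2ca* rose by 0.32 (adjusted p = 0.00104). *Hnrnpl*, which shields some mRNAs from NMD, fell by 0.21 (adjusted p = 0.00328), with 459 to 466 CPM in cKO and 518 to 550 CPM in control libraries, and *Ptbp1*, which does likewise, did not pass (log2 0.03, adjusted p = 0.677).

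**Figure D4:**
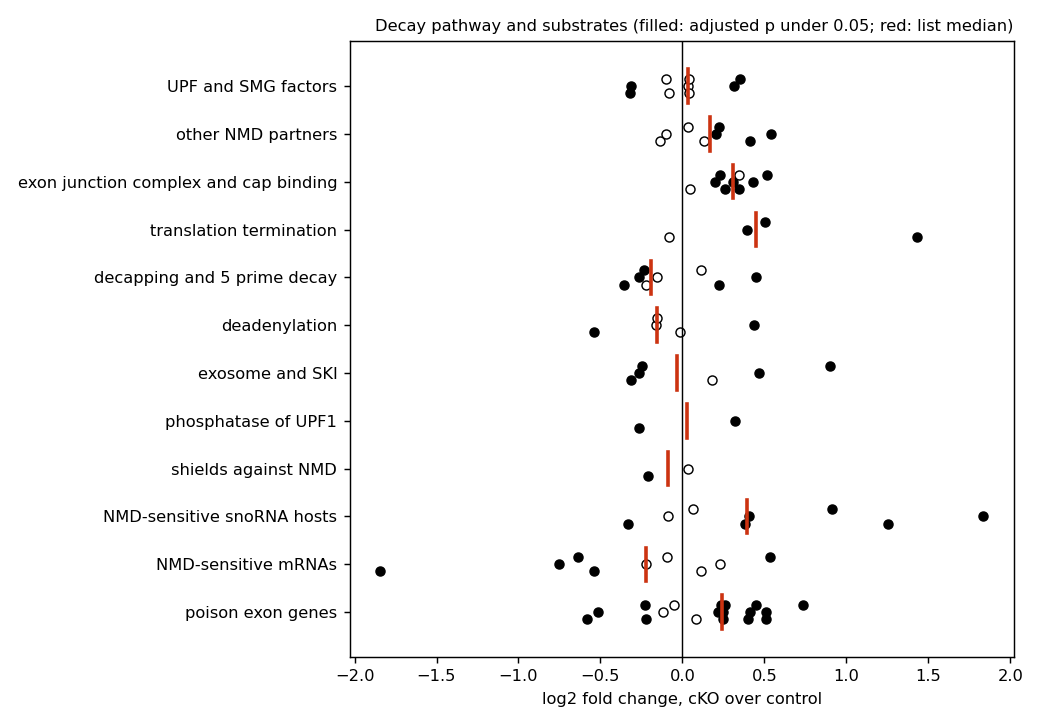
Log2 fold change of cKO over control (horizontal axis) for each tested gene of the NMD factor list, the 8 groups of partner and decay genes and the 3 groups of known NMD-sensitive transcripts (vertical axis); filled points passed an adjusted p of 0.05 and red lines are list medians. The 9 factors cluster around 0, while the exon junction list lies to the right of 0 and *Snhg15* and *Ddit3* are the points farthest to the right and left.

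RNAs known to be degraded by NMD were read in 3 lists, which give the level of those RNAs and not their rate of decay. Host genes of small nucleolar RNAs (snoRNAs) are spliced into short-lived RNAs whose reading frames end early. Of 8 such hosts 5 rose, 1 fell and 2 did not pass (24.1% of all tested genes were higher and 24.5% lower), with a median log2 fold change of 0.39. *Snhg15* was at 79.7, 90.4 and 80.3 CPM in cKO and 23.2, 23.1 and 23.8 CPM in control libraries, a 3.57-fold rise (log2 1.84, SE 0.0737, adjusted p = 3.42e-07). *Snhg3* was at 18.6, 20.4 and 15.5 CPM against 7.62, 8.29 and 6.92 CPM, 2.39-fold higher (log2 1.26, SE 0.133, adjusted p = 3.8e-05). *Gas5* was at 277, 297 and 281 CPM against 150, 147 and 156 CPM, 1.88-fold higher (log2 0.91, SE 0.0495, adjusted p = 1.15e-06). *Snhg1* and *Snhg6* rose by 0.40 and 0.38 on the log2 scale, *Snhg8* fell by 0.33 (adjusted p = 0.0261), and *Snhg5* and *Snhg12* did not pass. *Snhg8* lost its call, leaving 0 hosts lower, without cKO library 1 or control library 3.

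The second list held mRNAs of stress and growth-arrest genes known as NMD targets. Of 9 tested, *Cdkn1a* rose, *Ddit3*, *Gadd45a*, *Gadd45b* and *Ifrd1* fell, and 4 did not pass, with a median log2 fold change of -0.22. The 5 called of 9 are near the 48.6% of all tested genes called in either direction. *Ddit3*, which codes for the stress factor CHOP, was at 10.3, 9.96 and 13.0 CPM in cKO and 38.9, 33.8 and 46.6 CPM in control libraries (log2 -1.84, SE 0.143, adjusted p = 5.88e-06). *Gadd45a* was at 27.3, 26.6 and 26.4 CPM against 44.8, 44.7 and 46.0 CPM (log2 -0.75, SE 0.0728, adjusted p = 2.14e-05), and *Gadd45b* at 67.8, 68.6 and 55.7 CPM against 103, 86.4 and 109 CPM (log2 -0.64, SE 0.101, adjusted p = 0.000496). All 3 genes were lower in every cKO library than in any control library. *Atf4*, the upstream stress factor, did not pass (log2 0.11, 95% interval -0.00545 to 0.231, adjusted p = 0.105). Without control library 3 the genes called higher were 2 rather than 1 and those called lower 5 rather than 4.

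**Figure D5:**
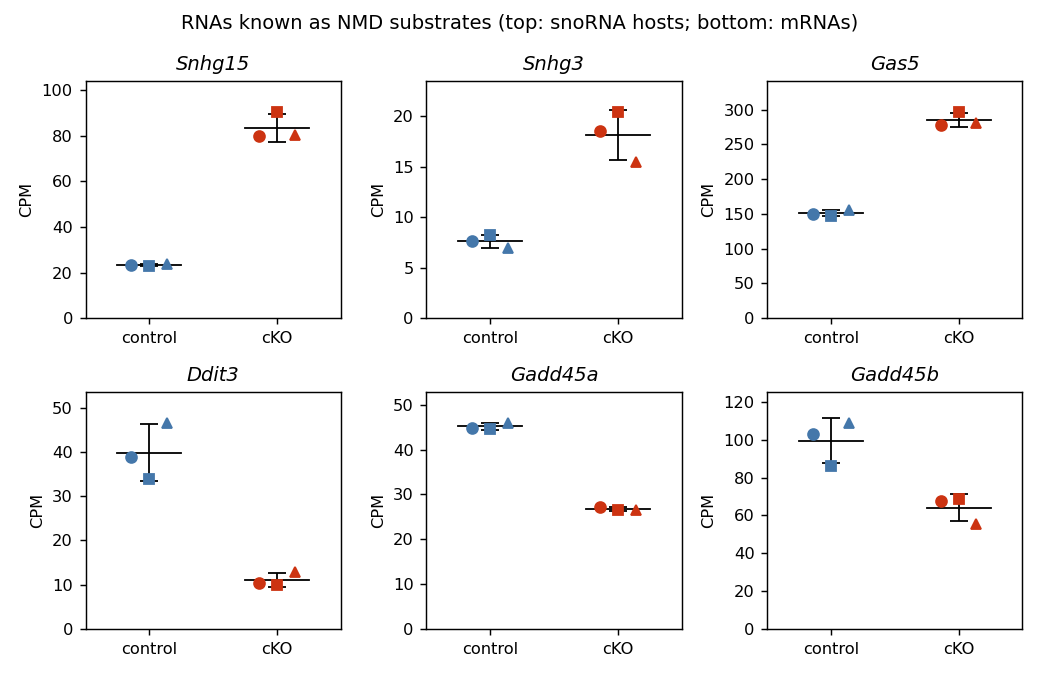
RNA level in CPM (vertical axis, from 0) of 3 snoRNA host genes (top) and 3 mRNAs (bottom) known as NMD substrates, in control (blue) and cKO (red) libraries with mean and SD; circles, squares and triangles are replicates 1, 2 and 3. Every cKO point is above the control points in the top row and below them in the bottom row.

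Splicing regulators carry poison exons, whose inclusion adds a premature stop codon and exposes the mRNA to NMD. Of 18 such genes 11 rose, 4 fell and 3 did not pass (against 24.1% and 24.5% of all tested genes), with a median log2 fold change of 0.24. Without control library 2 a further gene was called lower, 5 in all. *Hnrnpd* rose most, from 368, 366 and 383 CPM in control to 596, 632 and 629 CPM in cKO libraries (log2 0.73, adjusted p = 2.59e-06). *Clk1* and *Clk4*, kinases of splicing factors, fell by 0.52 and 0.58 on the log2 scale, with *Srsf5* and *Rbm39* the other 2 that fell.

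Only 4 non-coding RefSeq transcripts of these genes could be tested for their share of the gene, 2 of *Clk1* and 1 each of *Srsf3* and *Srsf7*, and none passed (edgeR, 0 at adjusted p under 0.05 and 1 at an unadjusted p under 0.05). Over 7646 transcripts tested for share 0.615% passed. On simulated data the same test recovered 55% of 40 transcripts changed 2-fold in level. Their median absolute fitted change in share was 0.638 on the log2 scale. The *Clk1* transcript NR_027854 held 60.4%, 59.7% and 61.1% of *Clk1* counts in cKO and 44.6%, 41.7% and 36.4% in control libraries, and the groups did not overlap (p = 0.1 by the exact test over libraries, its lowest possible value, and unadjusted p = 0.0348 in the edgeR model). The other non-coding *Clk1* form, NR_027853, held 31.7%, 30.6% and 19.3% against 38.5%, 32.9% and 36.0%, a smaller share in each cKO library than in any control library. The coding form NM_001042634 held 7.90%, 9.73% and 19.5% against 16.8%, 25.4% and 27.6%, with overlap (unadjusted p = 0.0308 and adjusted p = 0.838 for its share in the edgeR model). By level, NR_027854 did not pass the test (log2 0.06, adjusted p = 0.736) and NR_027853 fell by 0.93 on the log2 scale (adjusted p = 0.0107). *Srsf7* NR_036615 likewise held a smaller share in each cKO library (45.4% to 50.9% against 51.5% to 54.4%), and *Srsf3* NR_036613 ran from 18.2% to 33.0% in cKO libraries, a range that held all 3 control libraries.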

How the data were processed

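RNA libraries of day 3 YFP+ iGCBs, 3 cKO and 3 control, were compared. Per the labels and the methods of the study, the authors aligned the reads to mm10 with HISAT2, quantified RefSeq transcripts with StringTie, and deposited estimated counts per gene and per transcript from its prepDE script. Versions and the read length setting are not given in the sources used here. The deposited estimated counts are whole and not normalized. The growth protocol in the labels gives a longer culture than the titles, which were followed.

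Genes were kept with filterByExpr (minimum count 10), scaled by TMM factors and tested by quasi-likelihood in edgeR 4.0.16 (R 4.3.3), Benjamini-Hochberg adjusted over all genes tested. Transcripts were fitted likewise and their share tested with diffSpliceDGE, and ratios and shares with exact permutation tests (scipy 1.17.1). CPM use TMM-scaled library sizes. The fits were tested on simulated data, where 95% of 100 changes of 2-fold and 70% of 100 of 1.5-fold were recovered in the gene table. The simulation gave all genes the same dispersion and changed only 200, while 48.6% of tested genes were called in the data. These shares therefore need not hold for the comparison itself. Gene locations and lengths are GENCODE M21, and 35707 of 36026 transcripts matched RefSeq. Alternatives were RLE factors, total counts only, DESeq2 1.42.0, other count filters, a test against 1.5-fold, halved counts, a replicate block, *Xist* as a covariate, and each library left out. Same-number libraries deviated together only weakly (r = 0.00851, 0.0839 and 0.133), so the numbers were not taken as pairs.

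Genes and lists were chosen with earlier results of these data known. Named genes are the 9 factors, *Eif3e*, up to 4 genes a list past 1.5-fold or else the one with the smallest p, and the 6 that most resembled the mean of the factors. All others named were chosen after their values were seen. *Zfas1* is not analysed here, and *Upp1* had too few counts to test. A gene of the partner list and one of the germinal center markers are not reported here.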

Additional observations from a re-analysis of the deposited data

How the results depend on the processing

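*Upf1*, *Upf3b*, *Smg6* and *Smg9* kept their direction and their call with each of the 6 libraries left out (largest adjusted p 0.0445, for *Smg9*) and under 8 of the 9 other alternatives, DESeq2 and the *Xist* covariate included. In the exception, a test against 1.5-fold, 0 factors were called higher and 0 lower (of all genes 584 and 580, against 3204 and 3264). With the replicate block 0 transcripts of the factors were called higher and 0 lower, and without a filter on low counts 1 was called lower. Leaving out 1 library gave 1 to 2 transcripts higher and 1 to 2 lower. The causes were not tested. The block left 3069 genes higher and 3165 lower of all tested and, of the pathway genes, ended the call of *Gspt2* (adjusted p = 0.0501). Not every library deviated most like the one with its own number.

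Signs turned where differences were near 0. *Upf3a* was at -0.00268 without cKO library 3 and -0.0179 without control library 3, *Smg5* at -0.0112 without cKO library 2 and -0.00196 without control library 2, all on the log2 scale, within leave-one-out ranges of -0.0179 to 0.0876 and -0.0112 to 0.0792. The log2 ratio of *Smg8* to *Smg1* differed by 0.00293 without cKO library 3 and 0.0148 without control library 1, with a range of -0.0726 to 0.0148 over the libraries left out. The share of *Srsf3* NR_036613 differed by 0.0284 on the log2 scale without cKO library 3 and by -0.464 without cKO library 2. Factors near 30 CPM were measured with SEs up to 0.0876 on the log2 scale, and differences smaller than the intervals given could not be shown with 3 libraries a group.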
